A study of Homo sapiens with 30 samples.

Results

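The subtelomeric end of the long arm of human chromosome 9 is the last stretch of 9q before the chromosome end, and it holds EHMT1 and CACNA1B. It was taken as all restriction fragment ends at chr9:140215001-141213431 in hg19, a width of 998431 bp. These were 2758 of 382657 fragment ends on chromosome 9 in the tables of the NOTCH1 promoter viewpoint, 3123 of 429740 at the S2 viewpoint and 3108 of 428705 at the S4 viewpoint, or 0.721%, 0.727% and 0.725% of the ends. Position alone chose them, and no read count was used. All 30 libraries of the series covered the region.

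The libraries were made by 4C-seq from K562, a human chronic myelogenous leukaemia cell line. The 5 genotypes were the S2 mutant, the S4 mutant, the S5 mutant, the S4-S5 mutant and WT, and the series describes the mutated places as CTCF-depleted sites at the NOTCH1 locus. Each was profiled from 3 viewpoints (the NOTCH1 promoter and the sites S2 and S4) with 2 libraries, and all cells were grown and fixed alike, for 10 min in 2% formaldehyde. The labels call the paired libraries independent but do not say whether they came from separate cultures, clones or ligations, so p-values reflect only how far such paired libraries differ, and that may be technical. The labels do not give the kind of mutation, whether a line is 1 clone, or where S5 lies.

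EHMT1 encodes GLP, which with its partner G9a adds methyl groups to lysine 9 of histone H3, a mark of silenced chromatin. Loss of one copy of EHMT1 causes Kleefstra syndrome, the disorder of 9q subtelomeric deletions. CACNA1B encodes the pore-forming subunit of the N-type calcium channel, which triggers transmitter release at synapses. NOTCH1 encodes a receptor of the Notch pathway, and CTCF is a DNA-binding protein that stops loop extrusion by cohesin and so helps set which sequences meet along a chromosome. In 4C-seq, DpnII cuts fixed chromatin at each GATC, ligation joins fragments that lay close together, and a second enzyme and inverse PCR recover what was joined to 1 chosen fragment. A read can therefore be counted only at a fragment end beside a GATC, and contact frequency falls steeply with distance along the chromosome.

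In the RefSeq gene table of GRCh38.p14, EHMT1 is followed on the telomeric side by CACNA1B, after which no protein-coding gene is listed. Centromeric of EHMT1 the nearest 10 protein-coding genes are ARRDC1, ZMYND19, DPH7, MRPL41, PNPLA7, NSMF, ENTPD8, NOXA1, EXD3 and NRARP, the last of which encodes an inhibitor of Notch signalling. Gene positions on hg19, the build of the fragment ends, were not used here, so no value below is assigned to 1 gene. The 250 bases upstream of the start of each of the region's named genes are shown with the DpnII sites they hold, beside which the fragment ends of 4C lie. They come from RefSeq (GRCh38.p14, plus strand of both, 5′ to 3′), with GATC, the DpnII site, in capitals. The EHMT1 window lies at chr9:137618755-137619004 and the CACNA1B window at chr9:137877532-137877781 on that build.
EHMT1: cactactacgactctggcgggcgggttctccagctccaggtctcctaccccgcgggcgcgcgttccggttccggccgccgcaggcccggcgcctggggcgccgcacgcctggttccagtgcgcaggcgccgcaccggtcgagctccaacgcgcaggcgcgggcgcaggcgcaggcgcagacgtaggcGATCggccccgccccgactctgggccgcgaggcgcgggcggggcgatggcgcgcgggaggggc
CACNA1B: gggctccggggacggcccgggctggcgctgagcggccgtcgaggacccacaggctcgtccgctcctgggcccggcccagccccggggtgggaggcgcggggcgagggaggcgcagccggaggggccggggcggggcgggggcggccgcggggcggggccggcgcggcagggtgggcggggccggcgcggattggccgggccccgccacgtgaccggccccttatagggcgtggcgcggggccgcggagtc
The EHMT1 window holds 1 GATC, whose first base lies 63 bases before the gene start, and the CACNA1B window holds 0. GATC reads the same on both strands, and 35.8% of the 35116 RefSeq promoter windows of this length hold it. No match says only that these letters are not in the window.

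The region starts 772 kb telomeric of the promoter viewpoint, 829 kb telomeric of S2 and 691 kb telomeric of S4. Its last listed fragment end lies 113 kb, 168 kb and 171 kb short of its telomeric edge in the tables of the 3 viewpoints, so that the outermost part has no values. Elsewhere the region is not short of fragment ends, with 276, 313 and 311 per 100 kb against 271, 305 and 304 over chromosome 9. Non-blind ends, which have a second-enzyme site in the fragment, made up 65.4%, 34.8% and 35.0% of the region's ends, against 65.8%, 40.9% and 40.9% of those on chromosome 9.

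WT libraries stood apart from mutant libraries across chromosome 9. Mutant libraries held 3500663 to 8008761 reads on the chromosome and WT libraries 1437870 to 2326487. Reads more than 5 kb from the viewpoint, the denominator used below, numbered 76932 to 3102118 in mutant libraries and 318591 to 1518459 in WT libraries. Of these, 81.6% to 89.9% lay within 500 kb of the viewpoint in mutant libraries, against 66.7% to 73.4% in WT libraries. The share more than 5 Mb away was 2.61% to 7.19% in mutant libraries and 12.9% to 16.9% in WT libraries. The part of this chromosome-wide difference in the values of the region was not tested, and genotype and library quality cannot be told apart in it, since it separates all 24 mutant libraries from all 6 WT libraries.

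The first comparison was the share of reads that fell in the region. The mutants gave the region a smaller share than WT at every viewpoint, with the S5 mutant lowest at the promoter and S4 and the S4 mutant lowest at S2. At the promoter viewpoint the region held 1.65% and 1.61% of reads in S2 mutant cells, 2.04% and 2.00% in S4 mutant cells, 1.20% and 1.23% in S5 mutant cells and 2.05% and 1.98% in S4-S5 mutant cells, against 3.07% and 3.06% in WT. At the S2 viewpoint it held 2.31% and 2.23% in S2 mutant cells, 1.26% and 1.24% in S4 mutant cells, 1.44% and 1.43% in S5 mutant cells and 1.78% and 1.70% in S4-S5 mutant cells, against 2.36% and 2.41% in WT. At the S4 viewpoint it held 1.34% and 1.33% in S2 mutant cells, 1.08% and 1.07% in S4 mutant cells, 0.863% and 0.872% in S5 mutant cells and 1.05% and 1.09% in S4-S5 mutant cells, against 2.41% and 2.45% in WT. All 8 mutant libraries lay below both WT libraries at each of the 3 viewpoints. The narrowest gap was the S2 mutant at the S2 viewpoint, whose direction turned with a mask of 20 kb around the viewpoint (2.93% against 2.69% in WT) and with non-blind ends alone (3.42% against 2.40% in WT). The S4 and S4-S5 mutants overlapped each other at the promoter and S4 viewpoints.

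The order of the mutants changed with the viewpoint. The S2 mutant was the highest mutant at S2 and at S4 but lay between the S5 mutant and the others at the promoter. Counting error was small beside these differences. In the shallowest library, the first of the S2 mutant at the promoter, the exact (Clopper-Pearson) 95% interval of the share ran from 1.56% to 1.74%. Reads carry no molecular identifier, so such intervals cover counting error only. An exact permutation test of the between-genotype F statistic over all 945 partings of 10 libraries into 5 pairs (upper tail) gave p = 0.00317 at the promoter, 0.00106 from S2 and 0.00317 from S4, with 0.00106 the smallest value it can give. After Benjamini-Hochberg adjustment over a family of 12 such exact tests the values were 0.00346, 0.00181 and 0.00346. The F statistic asks whether genotypes differ at all and says nothing of direction.

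**Figure D1:**
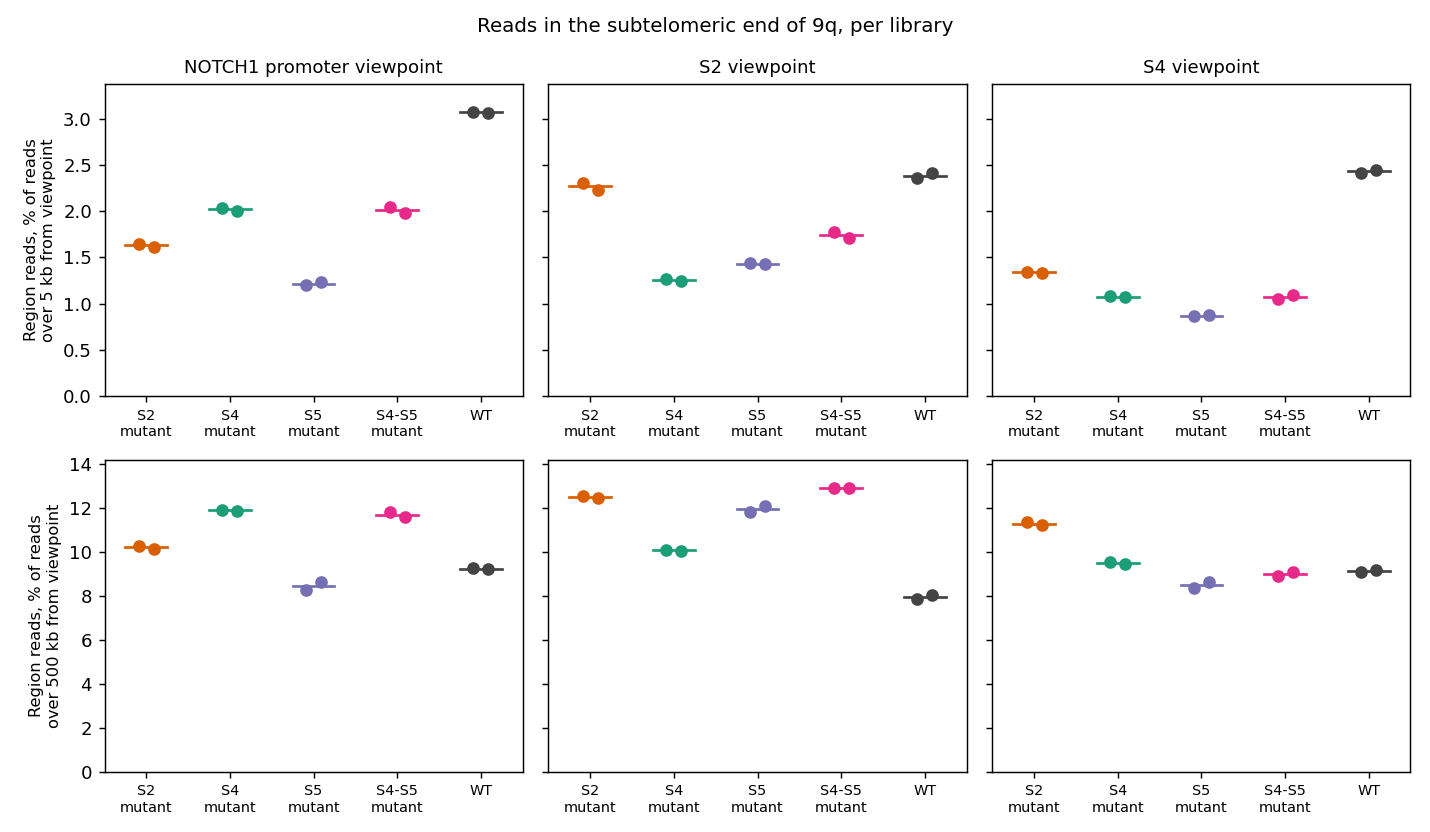
Percent of reads that fell in the region, for each library (points) and group mean (bars), by viewpoint and genotype. The upper row divides by reads over 5 kb from the viewpoint, and every mutant point lies under the WT points (1.20% to 2.05% against 3.06% to 3.07% at the promoter). The lower row divides by reads over 500 kb away, and most mutant points lie above WT at the promoter and S2.

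The direction depended on the denominator. When only reads more than 500 kb from the viewpoint were counted, the region took a larger share in most mutant libraries than in WT. This denominator is free of the near-viewpoint share but includes the reads more than 5 Mb away. Of reads over 5 kb away, those made up 2.61% to 7.19% in mutant libraries, against 12.9% to 16.9% in WT libraries. Their part in the larger share was not tested. At the promoter the region held 10.3% and 10.1% of the far reads in S2 mutant cells, 11.9% and 11.8% in S4 mutant cells, 8.23% and 8.60% in S5 mutant cells and 11.8% and 11.6% in S4-S5 mutant cells, against 9.24% and 9.19% in WT. At S2 it held 12.5% in both S2 mutant libraries, 10.1% and 10.0% in S4 mutant cells, 11.8% and 12.1% in S5 mutant cells and 12.9% in both S4-S5 mutant libraries, against 7.87% and 8.02% in WT. At S4 it held 11.3% and 11.2% in S2 mutant cells, 9.53% and 9.45% in S4 mutant cells, 8.36% and 8.60% in S5 mutant cells and 8.89% and 9.09% in S4-S5 mutant cells, against 9.09% and 9.17% in WT. The mutant libraries above both WT libraries numbered 6 of 8 at the promoter, 8 of 8 at S2 and 4 of 8 at S4, and those below both numbered 2, 0 and 3. The S5 mutant was below WT at the promoter and S4, but above it at the promoter with non-blind ends alone (10.0% against 9.16% in WT) or covered ends in place of reads (9.41% against 7.81% in WT), and at S4 with covered ends (9.59% against 9.25% in WT). The S2 mutant fell below WT at all 3 viewpoints without the 2 most covered region ends of each library, an alternative added after the data were seen. It then held 7.42% against 8.83% in WT at the promoter, 6.15% against 7.42% in WT at S2, and 5.86% against 8.66% in WT at S4. The ends left out had held 33.3%, 56.7% and 55.7% of its region reads at the promoter, S2 and S4. In WT they had held 4.92%, 7.74% and 6.24%. Ends were left out only in the region and in its mirror interval (defined below). A larger fall in the S2 mutant was thus built into this alternative, which shows only how concentrated its reads were. With all ends kept, the exact permutation p of the far-read share was 0.00106, 0.00106 and 0.00212 at the promoter, S2 and S4 (adjusted 0.00181, 0.00181 and 0.00317).

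On the log2 scale, the mutant over WT ratio of the far-read share ran from -0.13 in S5 mutant cells to 0.37 in S4 mutant cells at the promoter. It ran from 0.34 in S4 mutant cells to 0.70 in S4-S5 mutant cells at S2, and from -0.11 in S5 mutant cells to 0.30 in S2 mutant cells at S4. The same ratio of the share of all reads over 5 kb away was negative in all 12 pairings, from -1.49 in S5 mutant cells at S4 to -0.07 in S2 mutant cells at S2.

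Another measure set the region against its mirror interval, the stretch of the same width at the same distances on the centromeric side of the viewpoint, and is free of library scaling. It is the log2 ratio of reads per fragment end in the region to reads per fragment end in the mirror interval. At the promoter it was -0.43 and -0.47 in S2 mutant cells, -0.08 and -0.12 in S4 mutant cells, 0.39 and 0.44 in S5 mutant cells and 0.69 and 0.67 in S4-S5 mutant cells, against 0.21 and 0.25 in WT. At S2 it was -0.04 and -0.06 in S2 mutant cells, -0.55 and -0.56 in S4 mutant cells, 0.89 and 0.92 in S5 mutant cells and 0.38 and 0.36 in S4-S5 mutant cells, against 0.19 and 0.24 in WT. The genotypes thus fell on both sides of WT at these viewpoints, with the S2 and S4 mutants leaning to the centromeric side and the S5 and S4-S5 mutants to the side of the region. For the S2 mutant this turned at S2 with non-blind ends alone (0.52 against 0.30 in WT), and with covered ends in place of reads its value at the promoter was 0.25 against 0.27 in WT. At S4 it was -0.901 and -0.997 in S2 mutant cells, -1.46 and -1.48 in S4 mutant cells, -1.42 and -1.37 in S5 mutant cells and -1.33 and -1.29 in S4-S5 mutant cells, against -0.59 and -0.56 in WT. There all 8 mutant libraries lay below WT, and every library, WT included, had fewer reads per end in the region than in its mirror. The exact permutation p was 0.00106 at each viewpoint (adjusted 0.00181), the smallest possible value, and no 2 genotypes overlapped at the promoter or S2.

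Most fragment ends of the region had no read. Ends with at least 1 read made up 3.12% to 8.41% in the mutant libraries at the promoter, against 8.67% and 9.75% in WT. They made up 3.39% to 5.60% in mutants at S2, against 7.30% and 7.81% in WT, and 3.93% to 5.28% in mutants at S4, against 8.24% and 8.33% in WT. Again all 8 mutant libraries lay below both WT libraries at each viewpoint. All mutant libraries held more reads on chromosome 9 than the WT libraries, but some held fewer over 5 kb away. These were the S2 and S5 mutants at the promoter (76932 to 206306, against 318591 and 525512 in WT). The S2 mutant at S4 was the other such group (521742 and 481265, against 1087466 and 1518459 in WT). The exact permutation p was 0.00106, 0.00317 and 0.00635 at the promoter, S2 and S4 (adjusted 0.00181, 0.00346 and 0.00635). With every library thinned to the fewest reads over 5 kb away among those of its viewpoint, the share of ends with a read was 2.60% to 6.25% in mutants and 7.18% to 7.22% in WT at the promoter. It was 2.95% to 3.89% in mutants and 7.30% to 7.39% in WT at S2, and 2.40% to 4.03% in mutants and 6.82% to 7.24% in WT at S4, so the groups stayed apart.

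The region's share of all covered ends moved by smaller factors than its share of reads. Of the ends with a read more than 5 kb from the viewpoint, the region held 4.64% ± 0.36 in S2 mutant cells, 5.53% ± 0.41 in S4 mutant cells, 4.78% ± 0.02 in S5 mutant cells and 6.02% ± 0.19 in S4-S5 mutant cells, against 5.19% ± 0.26 in WT at the promoter (SD, n = 2). WT lay inside the range of the mutants there. At S2 the means ran from 4.46% to 5.25% over the mutants, against 5.20% in WT, and at S4 from 4.74% to 4.92%, against 5.50%. The exact permutation p of these shares was 0.0212, 0.0169 and 0.0487 at the promoter, S2 and S4. A covered end counts alike with 1 read or many. In S2 mutant cells at S4, 130 and 122 region ends were covered, of which 7 and 6 had at least 10 reads. Of region ends with 1 to 4 reads in a genotype, 39.8% to 89.3% had at least 100 reads in a library of another genotype (given below). What such ends add to these shares was not tested.

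Reads were concentrated in few ends. Ends with at least 10 reads numbered 12 and 13 in S2 mutant cells, 85 and 81 in S4 mutant cells, 31 and 32 in S5 mutant cells and 152 and 163 in S4-S5 mutant cells at the promoter, against 163 and 177 in WT. At S2 they numbered 10 and 11 in S2 mutant cells, 70 and 72 in S4 mutant cells, 29 and 35 in S5 mutant cells and 65 in each S4-S5 mutant library, against 121 and 125 in WT. At S4 they numbered 7 and 6 in S2 mutant cells, 59 and 60 in S4 mutant cells, 29 and 31 in S5 mutant cells and 51 and 52 in S4-S5 mutant cells, against 162 and 166 in WT. The S2 mutant had the fewest at all 3 viewpoints and WT the most at S2 and S4, while at the promoter the S4-S5 mutant came up to the lower WT library. These counts are not scaled to depth, which was lowest in S2 mutant cells at the promoter, where 1 library had 76932 reads over 5 kb away. When an end counted only with at least 2% of the reads of the best covered library at that end, a rule added after the data were seen, the share of ends that passed was 0.997%, 0.368% and 0.386% in S2 mutant cells at the promoter, S2 and S4, against 7.94%, 4.61% and 6.27% in WT. Ends with at least 10 reads held 91.3% to 99.6% of the region's reads in every library.

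The number of ends that together held 50% of the region's reads was again lowest in S2 mutant cells and highest in WT at each viewpoint. It was 4 in both S2 mutant libraries at the promoter and 2 at S2 and S4, against 40 and 41, 23, and 30 and 34 in WT at the promoter, S2 and S4. The most covered end alone held 37.8% and 40.4% of the reads in S2 mutant cells at S2, against 4.10% and 4.09% in WT. At S4 it held 28.0% and 28.8% in S2 mutant cells, against 3.14% and 3.93% in WT. Values for the S2 mutant in the region thus rest on a handful of ends.

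**Figure D2:**
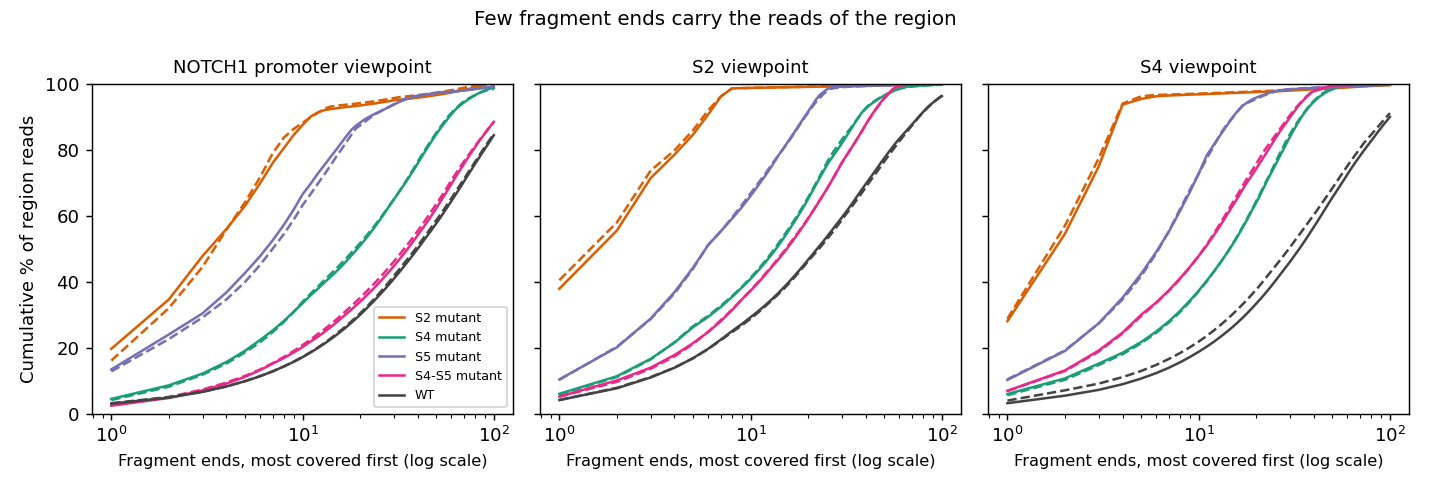
Cumulative percent of the region's reads (vertical axis) over fragment ends ranked from the most covered (horizontal axis, log scale), with replicate 1 solid and replicate 2 dashed. S2 mutant curves start highest, at 37.8% and 40.4% for the first end at the S2 viewpoint, and WT curves are the flattest at S2 and S4.

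Libraries of 1 genotype shared most of these ends and libraries of different genotypes few. Of the ends with at least 10 reads in either library of a genotype, 75.0% (S2 mutant at S2) to 100.0% (S4-S5 mutant at S2) had at least 10 in both. Across all region ends, the correlation of log2 reads was 0.86 to 0.99 within a genotype and 0.07 to 0.46 between genotypes, over 2758 to 3123 ends that share a viewpoint, an enzyme and, within a genotype, possibly a template. The sources used here do not say whether paired libraries were amplified from 1 ligated template. At the promoter, 391 ends had at least 10 reads in both libraries of some genotype, and 353 of them (90.3%) did so in 1 genotype alone. At S2 it was 240 of 261 (92.0%) and at S4 284 of 293 (96.9%).

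A single end at the promoter viewpoint was covered to that level in all 5 genotypes without a large imbalance. This non-blind end at position 140331675 had 50 and 24 reads in S2 mutant cells, 293 and 260 in S4 mutant cells, 145 and 165 in S5 mutant cells and 249 and 338 in S4-S5 mutant cells, against 85 and 122 in WT. At the S2 viewpoint 2 ends passed in all genotypes, but each was carried by 1 or 2 of them. The end at 140357252 had 7149 and 8129 reads in S2 mutant cells and 645 and 1081 in S4-S5 mutant cells, while the other mutants had 18 to 38 and WT had 23 and 16. The end at 140220928 had 2814 and 2577 reads in S5 mutant cells and 675 and 669 in S4 mutant cells, 10 to 14 in the other mutants and 11 and 10 in WT. No end of the S4 viewpoint passed in all 5 genotypes.

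Thinly covered ends tended to be ends that another genotype's libraries covered deeply. Of region ends with 1 to 4 reads over both libraries of a genotype, 39.8% to 89.3% had at least 100 reads in a library of another genotype. Of ends with 0 reads the share was 0.455% to 2.64%. The reason was not tested. A count of ends with at least 10 reads, as above, leaves these thin ends out but not all overlap with other genotypes. Of ends with at least 10 reads in both libraries of a genotype, 3.13% (WT at S4) to 34.5% (S5 mutant at S2) had at least 100 reads in a library of another genotype.

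The ends that led each group were picked for being the most covered there, so their values are a description. At the promoter, the leading WT end at 140424659 (blind) had 0 to 4 reads in the mutant libraries, against 295 and 505 in WT. The next, at 140251047 (non-blind), had 0 to 6 reads in the mutant libraries, against 170 and 302 in WT. The leading mutant end, at 140315928, had 249 and 212 reads in S2 mutant cells, which is 17.8% of that mutant's reads in the region, against 1 and 4 in WT.

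At S2 the leading WT end at 140892376 had 1 to 5 reads in the mutant libraries, against 691 and 920 in WT, and the one at 140374240 had 0 to 4, against 600 and 839 in WT. The leading mutant end was the one at 140357252 named above, which held 39.1% of the S2 mutant's reads in the region. At S4 the leading WT end at 140356633 had 1 to 5 reads in the mutant libraries, against 823 and 1461 in WT, and the one at 140595069 had 0 to 3, against 600 and 1159 in WT. The leading mutant end, at 140414738, had 1963 and 1838 reads in S2 mutant cells, 28.4% of its reads in the region, against 1 and 2 in WT.

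The spread of reads along the region differed by genotype and viewpoint. The region was cut into 4 parts of 250 kb, numbered from the centromeric edge, and part 4 holds fragment ends only in its inner piece. At the promoter part 1 held 56.7% ± 4.1 of the region's reads in S2 mutant cells, 44.5% ± 0.2 in S4 mutant cells, 71.3% ± 1.7 in S5 mutant cells and 52.9% ± 0.1 in S4-S5 mutant cells, against 43.1% ± 0.3 in WT (SD, n = 2). Part 3 held 6.86%, 17.5%, 4.80% and 9.24% in S2, S4, S5 and S4-S5 mutant cells, against 17.4% in WT. The S4 mutant lay closest to WT in both parts, and the S5 mutant had the most reads in part 1.

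At S2 part 1 held 39.9% ± 1.8 in S2 mutant cells, 40.4% ± 0.9 in S4 mutant cells, 55.6% ± 0.4 in S5 mutant cells and 49.1% ± 0.9 in S4-S5 mutant cells, against 37.9% ± 1.0 in WT. Part 3 held 24.2%, 28.9%, 4.81% and 9.15% in these mutants, against 30.4% in WT. The S2, S5 and S4-S5 mutants had a smaller part 3 than WT at both viewpoints, and the S4 mutant did at S2. Part 4 held 6.05% and 3.25% in the S2 and S4 mutants, 0.046% and 1.18% in the S5 and S4-S5 mutants and 0.663% in WT.

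At S4 the S2 mutant had 97.6% and 97.8% of its region reads in part 1, against 38.8% and 38.2% in WT. The S4 mutant, with 37.4% ± 0.1, was close to the WT mean of 38.5% ± 0.4. The S5 mutant had 49.3% ± 0.7 there, 14.7% in part 2 and 35.2% in part 3. The S4-S5 mutant was the only group with most reads in part 2, at 47.6% ± 0.6, against 31.0% ± 0.2 in WT. Since few ends carry these reads, the share of a part can rest on 1 or 2 ends, as in S2 mutant cells.

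**Figure D3:**
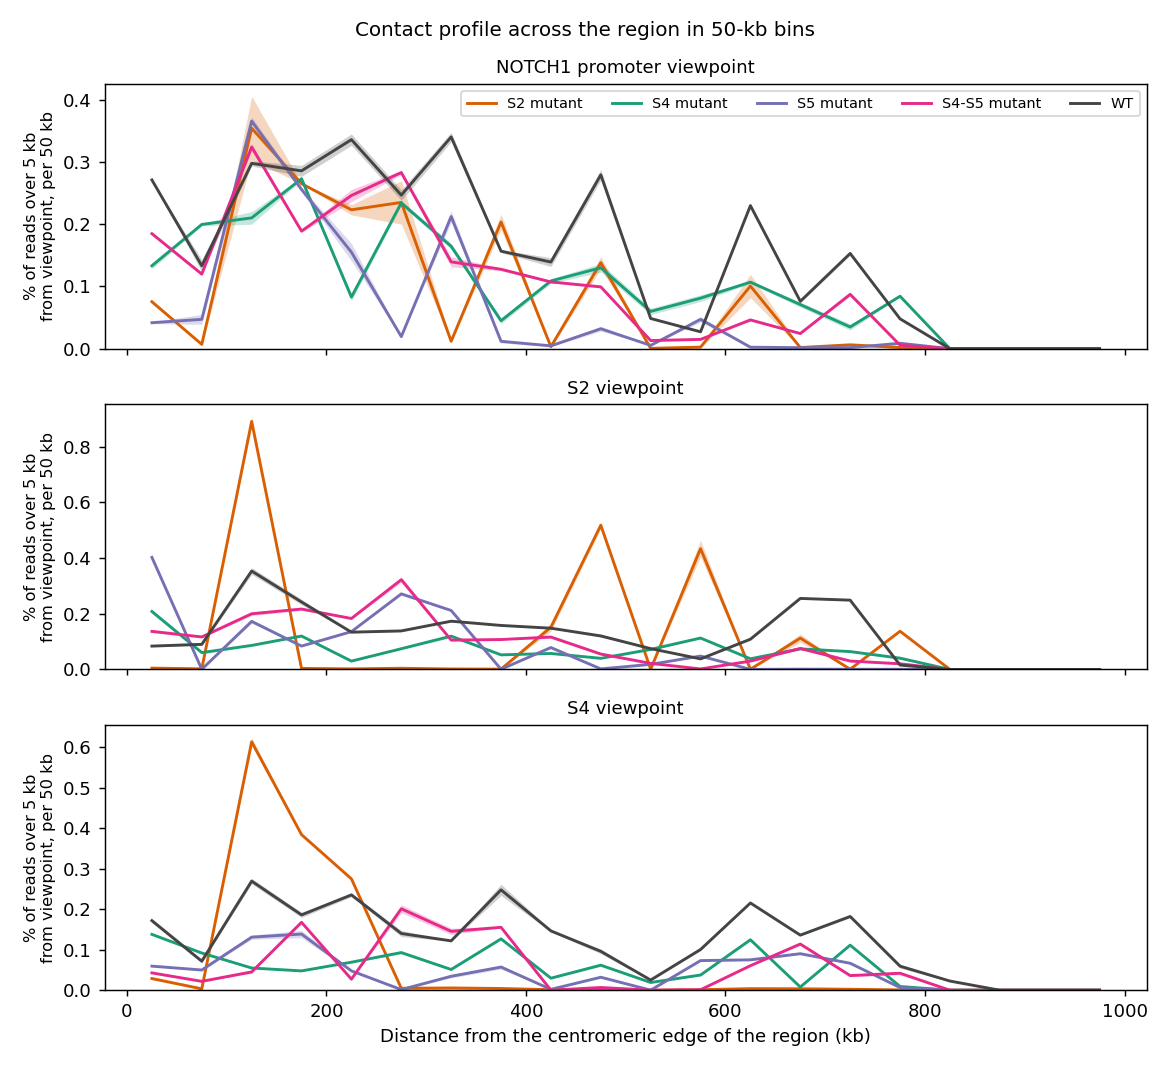
Percent of reads over 5 kb from the viewpoint in each 50-kb bin of the region, against distance from its centromeric edge, as the mean of 2 libraries (lines) and their range (shading). WT covers most bins, whereas the S2 mutant has isolated peaks, the highest reaching 0.891% in the bin at 125 kb at the S2 viewpoint, against 0.354% in WT.

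In 50-kb bins, the bins with the highest WT share at the promoter were chr9:140515001-140565000 and chr9:140415001-140465000. The first held 0.012% ± 0.002 of reads in S2 mutant cells, 0.165% ± 0.006 in S4 mutant cells, 0.212% ± 0.013 in S5 mutant cells and 0.139% ± 0.011 in S4-S5 mutant cells, against 0.340% ± 0.011 in WT (SD, n = 2). The second held 0.223%, 0.083%, 0.155% and 0.246% in S2, S4, S5 and S4-S5 mutant cells, against 0.336% in WT. All mutants lay below WT in both bins, the S2 mutant lowest in one and the S4 mutant in the other.

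At S2 and S4 the bin chr9:140315001-140365000 had the highest WT share. At S2 it held 0.891% ± 0.022 in S2 mutant cells, 0.086% in S4 mutant cells, 0.173% in S5 mutant cells and 0.200% in S4-S5 mutant cells, against 0.354% ± 0.017 in WT. At S4 it held 0.614% ± 0.014 in S2 mutant cells, 0.055% in S4 mutant cells, 0.131% in S5 mutant cells and 0.045% in S4-S5 mutant cells, against 0.270% ± 0.009 in WT. The S2 mutant alone exceeded WT in this bin at both viewpoints, and the other mutants were below WT at both. At S2 its excess rested on the end at 140357252, with 7149 and 8129 of its 7294 and 8277 reads in part 1. At S4 the log2 fold change of 1.19 turned to -4.20 among non-blind ends alone. The bin with the next highest WT share at S2 was chr9:140865001-140915000. It held 0.113%, 0.074%, 0.00117% and 0.0755% in S2, S4, S5 and S4-S5 mutant cells, against 0.255% in WT. At S4 it was chr9:140565001-140615000, with 0.00430%, 0.127%, 0.0572% and 0.155% in S2, S4, S5 and S4-S5 mutant cells, against 0.248% in WT.

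Each bin was tested by edgeR's quasi-likelihood test in 1 fit for each viewpoint, library sizes set to the reads over 5 kb away, and Benjamini-Hochberg adjustment over all bins of chromosome 9 with a mean of at least 10 reads. The filter kept 16, 16 and 17 of the region's 20 bins at the promoter, S2 and S4. At the promoter the S2 mutant was higher than WT in 2 bins and lower in 12 at an adjusted p of 0.05 or less, where 8.67% of all bins tested were higher and 72.7% lower. The S4 mutant was higher in 4 and lower in 9 (15.5% and 70.1% of all bins), the S5 mutant higher in 2 and lower in 14 (13.1% and 71.9%), and the S4-S5 mutant higher in 2 and lower in 13 (22.1% and 66.4%).

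At S2 the S2 mutant was higher in 4 bins and lower in 11 (7.4% and 77.8% of all bins), the S4 mutant higher in 3 and lower in 12 (15% and 73.4%), the S5 mutant higher in 4 and lower in 11 (10.7% and 75.5%), and the S4-S5 mutant higher in 5 and lower in 11 (18% and 71.8%). At S4 the S2 mutant was higher in 3 and lower in 14 (6.31% and 80.6%), the S4 mutant higher in 1 and lower in 16 (13.1% and 75.2%), the S5 mutant higher in 0 and lower in 17 (12.1% and 76.5%), and the S4-S5 mutant higher in 2 and lower in 15 (16.4% and 75.3%). The region's counts stood above some of these background shares and below others, and a test for any difference among genotypes called 100% of all bins at each viewpoint. For the S5 mutant at S4, the 17 bins at an unadjusted p under 0.05 were also the lower ones. DESeq2 with its own size factors called 12 bins higher and 4 lower there. Shares of all bins on chromosome 9 are not given for these alternatives.

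Scaling turned many of these calls. With the reads over 500 kb away as the library size, the bins higher and lower at the promoter became 5 and 9 in S2 mutant cells, 9 and 3 in S4 mutant cells, 4 and 11 in S5 mutant cells and 8 and 6 in S4-S5 mutant cells. At S2 they became 5 and 11, 8 and 7, 7 and 9, and 10 and 5 in S2, S4, S5 and S4-S5 mutant cells, and at S4 they became 3 and 14, 8 and 7, 5 and 8, and 6 and 11. Shares of all bins on chromosome 9 under this scaling are not given, so these counts do not set the region apart. The median log2 fold change of the region's tested bins moved with the scaling, for example to 0.54, against -0.43 before, in S4 mutant cells at the promoter. In the S2 mutant the median stayed strongly negative under both scalings, at -2.64 and -1.58 at the promoter, -5.14 and -4.41 at S2 and -5.79 and -4.62 at S4.

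The bins with the largest changes among those whose groups did not overlap differed by genotype. In the S2 mutant at S2, chr9:140765001-140815000 had 0.464% and 0.404% of reads, against 0.038% and 0.039% in WT, a log2 fold change of 3.51 ± 0.10 (SE, edgeR adjusted p = 2.43e-236). The same bin held 0.115% and 0.111% in S4 mutant cells at S2, a log2 fold change of 1.57 ± 0.10 (edgeR adjusted p = 2.01e-56). In the S4-S5 mutant at S2 it was the most lowered bin, with 0.00218% and 0.00161% and a log2 fold change of -4.37 ± 0.15 (edgeR adjusted p = 9.07e-167). At the promoter it was the most raised bin of the S4 mutant, with 0.076% and 0.087%, against 0.025% and 0.029% in WT (log2 fold change 1.56), and of the S5 mutant, with 0.043% and 0.052% (log2 fold change 0.77). One bin was thus at the extreme of 5 comparisons, in both directions.

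The bin chr9:140465001-140515000 was the most raised one of the S4-S5 mutant at all 3 viewpoints. It held 0.286% and 0.280% of reads in that mutant, against 0.255% and 0.238% in WT, at the promoter (log2 fold change 0.20 ± 0.06, edgeR adjusted p = 0.000503). At S2 it held 0.332% and 0.313%, against 0.141% and 0.136% in WT (log2 fold change 1.22), and at S4 0.191% and 0.211%, against 0.148% and 0.133% in WT (log2 fold change 0.52). Without the second WT library the promoter value was 0.15, and the call was lost (edgeR adjusted p = 0.0903).

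Other raised bins were chr9:140215001-140265000 in S5 mutant cells at S2, with 0.408% and 0.398%, against 0.086% and 0.082% in WT (log2 fold change 2.26), and chr9:140315001-140365000 in S2 mutant cells at S4 (log2 fold change 1.19). Among non-blind ends alone the log2 fold change of the last was -4.20, so that its direction turned. Smaller rises were found in chr9:140565001-140615000 in S2 mutant cells at the promoter (log2 fold change 0.38) and chr9:140265001-140315000 in S4 mutant cells at S4 (0.36). The first turned to -1.46 among non-blind ends, and without the second S2 mutant library it was 0.29 and no longer called (edgeR adjusted p = 0.0597).

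Several bins were almost empty in mutants, both towards the telomere and nearer the centromeric edge. In S2 mutant cells at S2, chr9:140365001-140415000 held 0.00500% and 0.00266%, against 0.233% and 0.252% in WT. The outermost tested bin at S2, chr9:140965001-141015000, held 0.140% and 0.135% in S2 mutant cells, against 0.0164% and 0.0152% in WT. The S4 mutant had 0.0448% and 0.0366% there, the S4-S5 mutant 0.0194% and 0.0215% and the S5 mutant 0.000317% and 0.000999%. In chr9:140915001-140965000 at S2 the S2 mutant had 7 and 9 reads and the S5 mutant 16 and 12, against 1776 and 2326 in WT (log2 fold changes of -8.05 and -8.35). In the outermost tested bin at S4, chr9:141015001-141065000, neither library of the S2 or S4-S5 mutant had a read, against 232 and 366 reads in WT. Taking 3 reads summed over the 2 libraries as the floor, the share was at least 76.7-fold lower than in WT in S2 mutant cells. In S4-S5 mutant cells it was at least 379-fold lower. This floor covers counting error only. The bin holds 13 fragment ends, passed the filter through its WT reads and was named as the most lowered bin, so its values are a description. The S4 and S5 mutants each had 2 and 1 reads there, which is 0.270% (95% counting interval 0.0554% to 0.792%) and 0.442% (0.0909% to 1.30%) of the WT level.

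At the promoter the S2 mutant had 0 and 1 read in chr9:140715001-140765000, against 156 and 253 in WT, or 1.30% of the WT level with a counting interval of 0.0328% to 7.28%. The S5 mutant had 5 and 5 reads in chr9:140815001-140865000, against 732 and 1209 in WT (log2 fold change -6.54). The S4-S5 mutant kept 27 and 45 reads in chr9:140965001-141015000, against 156 and 247 in WT (-3.06). In the S4 mutant the most lowered bins were chr9:140915001-140965000 at the promoter, with 129 and 96 reads, against 497 and 789 in WT (-2.13), chr9:140415001-140465000 at S2 (-2.16) and, at S4, the outermost tested bin given above. Bins called and lower by more than 2 on the log2 scale numbered 8 at the promoter, 10 from S2 and 14 from S4 in S2 mutant cells. They numbered 2, 2 and 5 in S4 mutant cells, 10, 8 and 7 in S5 mutant cells, and 2, 2 and 9 in S4-S5 mutant cells. The share of all bins on chromosome 9 past this cut is not given, so these counts do not set the region apart.

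As 1 stretch, the region was compared with all stretches of its own width on chromosome 9, again in 1 edgeR fit for each viewpoint. At the promoter its log2 fold change over WT was -0.91 ± 0.05 in S2 mutant cells, -0.60 ± 0.03 in S4 mutant cells, -1.34 ± 0.04 in S5 mutant cells and -0.61 ± 0.02 in S4-S5 mutant cells (SE, edgeR adjusted p at most 8.39e-28). Of the 97 stretches tested, 91.8%, 95.9%, 89.7% and 93.8% were called lower in these mutants. At S2 the region's values were -0.07 ± 0.03 (edgeR adjusted p = 0.0336), -0.93 ± 0.03, -0.74 ± 0.03 and -0.45 ± 0.03 in S2, S4, S5 and S4-S5 mutant cells, where 90.7%, 92.8%, 92.8% and 94.8% of stretches were lower. At S4 they were -0.86 ± 0.03, -1.18 ± 0.02, -1.49 ± 0.03 and -1.19 ± 0.02, where 92.9%, 92.9%, 88.9% and 93.9% of 99 stretches were lower.

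The region fell less than the typical stretch, which lies farther from the viewpoint, and the part of distance was not tested. Stretches over 500 kb away had a median of 0.000766 to 0.0362 reads per end in mutant libraries, against 0.0823 to 0.229 in WT. The fall of the typical stretch thus rests on few mutant reads. The median log2 fold change of all stretches was -4.10, -2.97, -2.52 and -1.96 at the promoter, -6.99, -5.79, -7.57 and -3.29 at S2 and -6.26, -6.48, -5.54 and -3.66 at S4, in S2, S4, S5 and S4-S5 mutant cells. Between 64.9% (S5 mutant, promoter) and 90.7% (S4-S5 mutant at the promoter, S2 and S4-S5 mutants at S2) of stretches had a lower value than the region. Scaled to reads over 500 kb away, the region's values were 0.14, 0.37, -0.13 and 0.34 at the promoter and 0.65, 0.34, 0.59 and 0.70 at S2. At S4 they were 0.30, 0.06, -0.11 and -0.02, of which those of the S4 mutant and the S4-S5 mutant did not pass the test (edgeR adjusted p = 0.0558 and 0.439). The medians moved too, to between -6.26 and -1.003, and stayed below the region in each of the 12 comparisons.

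**Figure D4:**
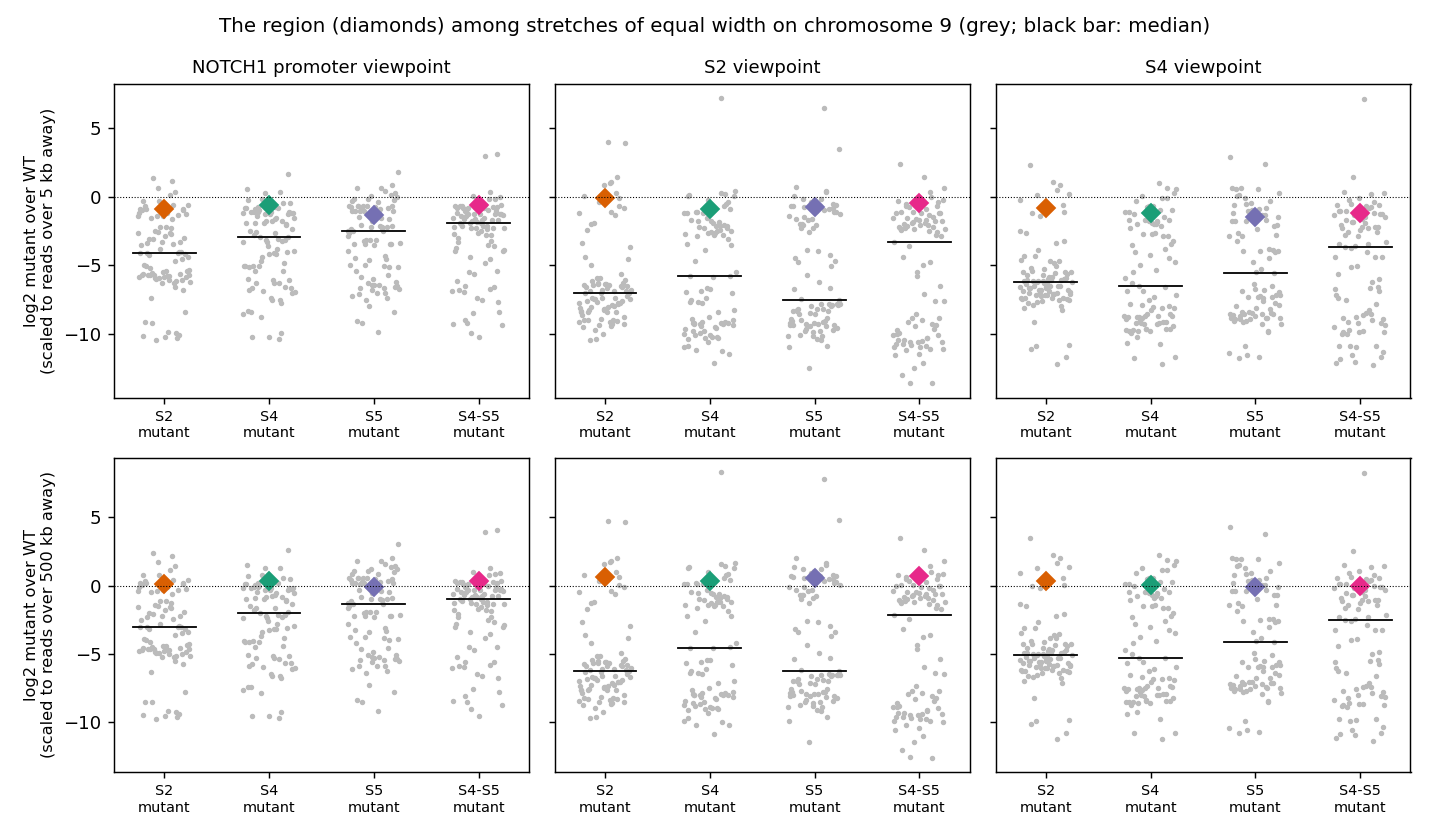
Log2 mutant over WT of the region (diamonds) and of every other tested stretch of the same width on chromosome 9 (grey points), with the median of all stretches as a black bar, scaled to reads over 5 kb (upper row) or over 500 kb (lower row) from the viewpoint. The region lies at -1.49 to -0.07 in the upper row and -0.13 to 0.70 in the lower row, above the median in every comparison, and the median reaches -7.57.

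In reads per fragment end, the region ranked first among the 109 such stretches more than 500 kb from the viewpoint in 28 of the 30 libraries. In the other libraries, the pair of the S2 mutant at S4, it ranked second, with 2.26 and 2.06 reads per end against 2.37 and 2.35 in chr9:137219708-138218138. It is the only such stretch on the telomeric side, and the stretches that came next lay on the centromeric side and farther from the viewpoint. The median stretch had far fewer reads. The region exceeded it 139-fold to 590-fold in mutant libraries at the promoter, against 43.2-fold and 39.4-fold in WT. At S2 the excess was 3770-fold to 10425-fold in mutants, against 30.2-fold and 31.5-fold in WT, and at S4 642-fold to 5538-fold, against 52.3-fold and 52.5-fold in WT. Mutant and WT libraries did not overlap in this excess at any viewpoint. The median stretch itself had 0.000766 to 0.0362 reads per end in mutants, against 0.0823 to 0.229 in WT. It had 0.000766 to 0.00275 in mutants at S2, and 0.000802 to 0.00166 in S2, S4 and S5 mutant cells at S4. The size of the excess there thus rests on few reads in the median stretch.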

How the data were processed

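4C-seq of K562 cells from 3 viewpoints in 5 genotypes with 2 libraries each was analysed at 1 region of chromosome 9. Per the file headers, each deposited table holds whole read counts per restriction fragment end of chromosome 9, which the authors left without normalization. The authors' scaled and smoothed columns were not used. Per the labels' protocols, DpnII was followed by NlaIII or CviQI, and which of these served which viewpoint is not stated. Per the submitters' processing notes, deepTools and the hg19 build were used. Aligner, read filters and counter: not given in the sources used here.

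Ends within 5 kb of the viewpoint were left out. Shares per library were compared by exact permutation tests over a family of 12 (4 measures at 3 viewpoints). Bins of 50 kb and stretches of the region's width, both laid over all of chromosome 9, were tested with edgeR 4.0.16 (R 4.3.3), keeping rows with a mean of at least 10 reads. DESeq2 1.42.0, TMM factors, other library sizes, masks and bin widths, covered ends in place of reads, non-blind ends, capped ends and leaving out each library were alternatives. Counting covered ends gives thinly covered ends full weight, and many of these were deeply covered in another genotype. The fits were tested on simulated data. Bins were named by a rule: the 2 with the highest WT share at each viewpoint, and for each mutant the largest called change in each direction whose libraries did not overlap WT. Named fragment ends were the 2 leading in WT and the 1 leading in any mutant, and ends covered in all 5 genotypes were added after the data were seen. The region and lists were chosen with earlier results of these data known.

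Libraries with the same replicate number were checked for pairing. Correlations of their deviations from the group means over 50-kb bins ran from -0.10 to 0.12, so the numbers were not treated as pairs.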

Additional observations from a re-analysis of the deposited data

Results flagged for a closer look

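In 2 genotypes the region moved in opposite directions from different viewpoints, with every mutant library on one side of both WT libraries at one viewpoint and on the other side at the other. None of these differences between viewpoints was itself tested. In the S5 mutant the log2 mutant over WT ratio of the far-read share was -0.13 at the promoter, 0.59 from S2 and -0.11 from S4, so that the promoter minus S2 difference was -0.72 and the S2 minus S4 difference 0.69. With non-blind ends alone (10.0% against 9.16% in WT) and with covered ends (9.41% against 7.81% in WT) the S5 mutant was above WT at the promoter, and with covered ends at S4 (9.59% against 9.25% in WT), so that the first opposition was absent under both of these settings and the second with covered ends. The log2 ratio of the region to its mirror interval, as mutant minus WT, was 0.19, 0.69 and -0.82 in the S5 mutant at the promoter, S2 and S4. The difference from S4 was 1.01 at the promoter and 1.51 at S2. In the S4-S5 mutant the same measure was 0.45, 0.16 and -0.73, and the difference from S4 was 1.19 at the promoter and 0.89 at S2. The mirror interval is a different stretch of the chromosome for each viewpoint.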

How the results depend on the processing

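The 3 region shares of reads kept an exact permutation p of at most 0.0487 under all alternatives run, but with covered ends in place of reads the promoter means turned, to 5.24% in mutants against 5.19% in WT. By genotype, the S2 mutant at S2 turned above WT with a mask of 20 kb (2.93% against 2.69%) and non-blind ends (3.42% against 2.40%). The share of ends with a read lost its call at S4 among mutants alone (exact p = 0.0571). The far-read share was not called with covered ends at S2 (exact p = 0.156) and S4 (0.422), nor was the mirror ratio at S2 (0.407). At S4 the mean far-read share was below WT with far reads taken from 250 kb (4.94% against 6.57%), with non-blind ends (9.73% against 10.6%) and without the 2 most covered ends (7.46% against 8.66%, added after the data were seen). Those 2 ends had held 10.2% to 57.0% of the region's reads in mutant libraries at S4, against 5.42% and 7.05% in WT. Leaving them out thus lowers mutants more than WT by construction.

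For the region as 1 stretch, in the order S2, S4, S5 and S4-S5 mutant, TMM factors gave 0.93, 1.23, 0.21 and 0.72 at the promoter, 2.31, 1.53, 1.65 and 2.03 at S2 and 1.43, 1.27, 0.82 and 0.84 at S4, turning all 12. DESeq2 with its size factors gave 1.73, 1.24, 0.37 and 1.03, then 5.52, 3.01, 2.82 and 2.35, then 4.31, 2.47, 2.47 and 1.56. Scaling to reads over 500 kb away turned 9, at 0.14, 0.37 and 0.34 (S2, S4 and S4-S5 mutants, promoter), 0.65, 0.34, 0.59 and 0.70 (S2) and 0.30 and 0.056 (S2 and S4 mutants, S4), and -0.022 (S4-S5 mutant, S4) lost its call. Counting covered ends left no call: -0.16, 0.094, -0.12 and 0.22 at the promoter, -0.22, 0.014, -0.071 and -0.083 at S2, and -0.21, -0.16, -0.18 and -0.20 at S4. These counts are small, and only 29, 24 and 23 stretches passed the filter at the promoter, S2 and S4, against 97, 97 and 99 with reads. Of them 3 to 10, 1 to 4 and 1 to 4 were called, so that few calls were made anywhere on the chromosome. The S2 mutant at S2, the weakest value, was -0.015 with capped ends, 0.51 with non-blind ends, 0.12 with a mask of 20 kb, and -0.096 to -0.049 with each library left out, its call lost without the second mutant, the first WT or the second WT library. These scalings differ in which reads set the library size, and the cause of each turn was not tested.

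For 50-kb bins, counting covered ends left 0 called by edgeR in all 12 comparisons (at an unadjusted p under 0.05, 1 for the S4-S5 mutant at the promoter and at S4 and 0 in the others). Only 8, 6 and 9 region bins passed the filter then at the promoter, S2 and S4. On all of chromosome 9, 1 to 12 bins were called in a comparison. Bins of 100 kb, of which 8, 8 and 9 were tested in the region, gave 7, 8, 7 and 8 at the promoter, 8 in each mutant at S2 and 9, 8, 9 and 9 at S4. Shares of all bins on chromosome 9 are not given for these alternatives, so the counts do not set the region apart. Among named bins, covered ends gave -0.13 for the S2 mutant bin raised at the promoter, -0.43 for its bin at S4 and -0.079 for the S4-S5 mutant bin at S4, and non-blind ends gave -1.46 and -4.20 for the first and second.

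With the replicate number as a block, the region's log2 fold changes ran from -1.49 to -0.07 and 13 to 17 bins were called, and no call of a stretch or of a named bin changed. The share of all bins on chromosome 9 called under the block is not given. With few covered ends, depth limits what can be said of the outer bins.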
